A study of Mus musculus with 96 samples.

Results

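The REV-ERB and ROR nuclear receptors are taken here as the genes whose symbol in the gene count table is Nr1d1, Nr1d2, Rora or Rorb, which gave 4 of 56748 genes. Poly-A RNA of liver, skeletal muscle and cerebral cortex was sequenced in 96 libraries from 32 mice, with 8 libraries for each tissue, sex and diet. The 12 groups set ad libitum feeding (AL) against intermittent fasting (IF), and totals ran from 26097314 to 49838004 counts per library.

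Mice 1-16 are labelled male. For males, the study's methods describe C57BL/6 mice placed at 6 weeks of age on free food (AL, mice 1 to 8) or on a daily fast of 16 h with 8 h of food (IF, mice 9 to 16). The IF mice had food only in the light phase and fasted through the dark phase. After 4 months the AL and IF mice were killed between lights on and noon, at the close of the fast for the IF mice. They were perfused with PBS. Each mouse was sampled at a single time, so a shift in the phase of a daily rhythm cannot be told apart from a change in level. Mice 25-40 are labelled female, with AL in mice 25 to 32 and IF in mice 33 to 40, and their strain, age, hours of fasting, months on the diet and hour of killing are not given. Sex and cohort therefore cannot be told apart.

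The labelled tissues were checked against markers. The hepatocyte list (6 genes, Alb most abundant) summed to between 36940 and 88393 CPM in the liver libraries, where CPM is the count of a gene scaled to the total of its library. The list for skeletal muscle fibres (7 genes, Acta1 most abundant) summed to between 111536 and 149958 CPM in muscle and to at most 9.42 CPM in liver. The neuron list (4 genes, Snap25 most abundant) summed to between 3133 and 5270 CPM in cortex and to at most 5.28 CPM in muscle.

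A single library did not match its label. The cortex library of AL replicate 1 of mice 1-16 (CAL1), labelled male, held 213 CPM of Xist, the RNA of the inactive X chromosome, and 0 counts of the Y-linked genes Ddx3y, Eif2s3y, Kdm5d and Uty. In the other 47 libraries of mice 1-16, Xist lay between 0 and 0.612 CPM and Ddx3y between 25.1 and 70.8 CPM. In the 48 libraries of mice 25-40, Xist lay between 36.8 and 1627 CPM and Ddx3y between 0 and 0.0497 CPM. CAL1 was left out of every comparison except an alternative fit of cortex that kept it, which left 95 libraries and 7 in its group.

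REV-ERBs and RORs bind the same short DNA element. REV-ERBs, which bind haem and recruit the NCoR and HDAC3 corepressor, repress transcription from it, and RORs activate it. Through this element they set the rhythm of Arntl, the gene of the clock activator BMAL1, while the REV-ERB genes are switched on by CLOCK and BMAL1 at E-boxes and repressed by period and cryptochrome proteins.

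Per kilobase of gene length, the scale on which levels of different genes can be set side by side, Nr1d1 was the most abundant of the 4 receptors in AL mice of each tissue and cohort. In muscle of AL mice 1-16 it stood at 67.1 ± 9.85 CPM per kilobase (mean ± SD, n = 8), beside 8.47 ± 1.70 for Nr1d2 and 3.71 ± 0.527 for Rora. In cortex of AL mice 1-16 (n = 7) the order was Nr1d1 at 31.2 ± 6.05, Nr1d2 at 11.8 ± 1.87, Rorb at 3.77 ± 0.804 and Rora at 2.64 ± 0.608 CPM per kilobase. This order did not hold in the fasted liver of mice 1-16, where Nr1d2 (12.9 ± 2 CPM per kilobase, n = 8) lay above Nr1d1 (6.74 ± 2.41). In the fasted muscle of those mice Nr1d1 (12.8 ± 2.89) and Nr1d2 (11.4 ± 0.632) differed by less than the SD of Nr1d1.

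**Figure D1:**
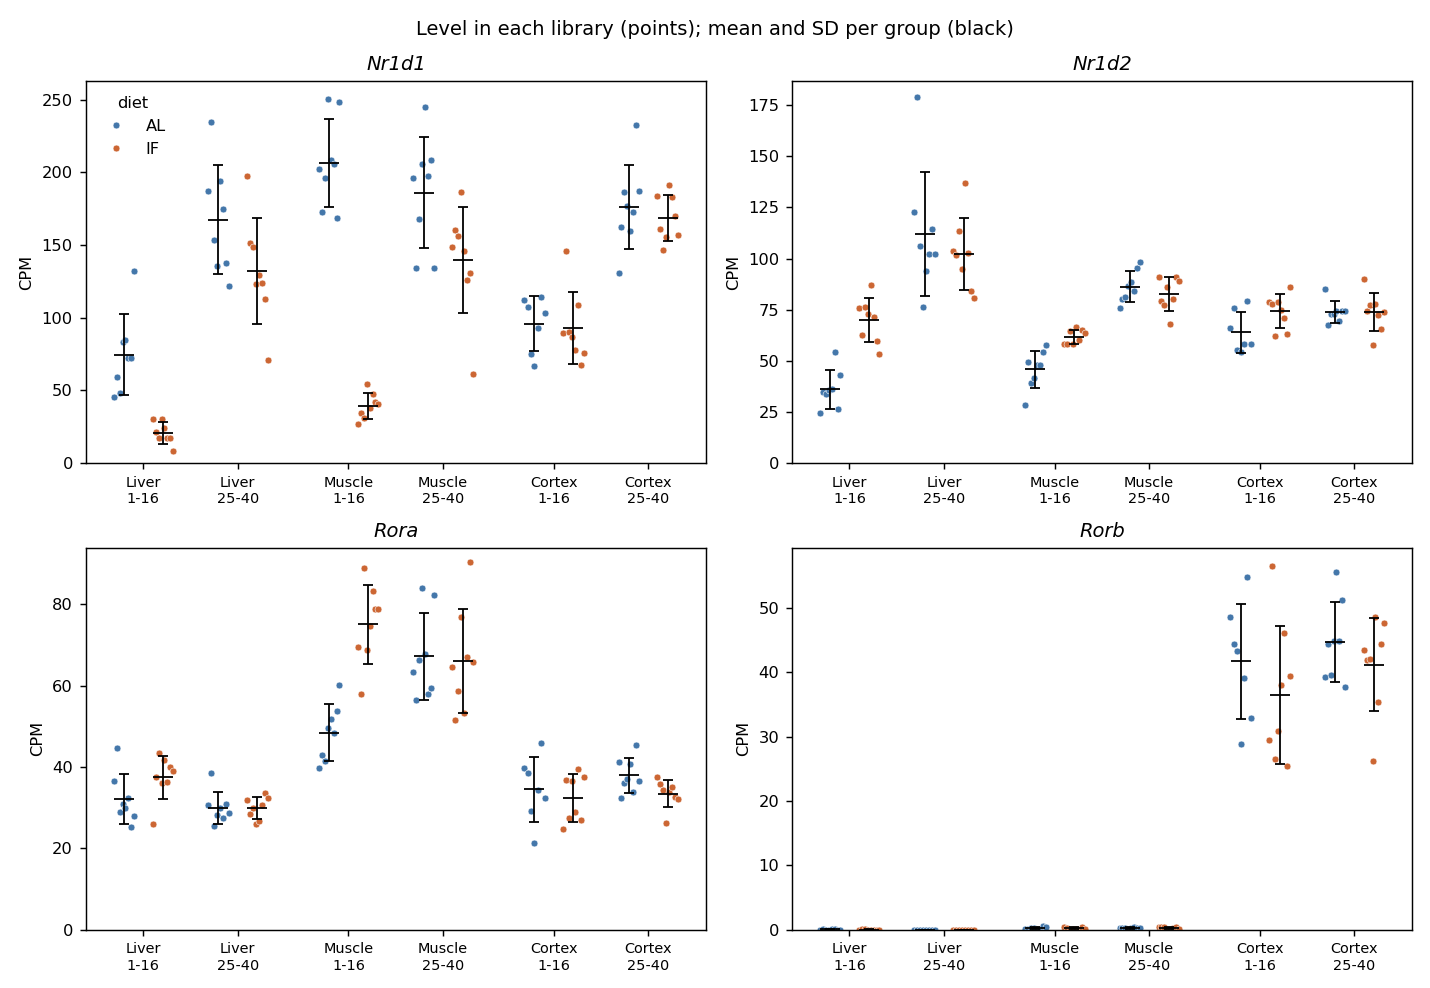
CPM of each receptor gene in each of the 95 libraries (points; blue AL, orange IF) by tissue and cohort, with the mean and SD of each group in black and every axis starting at 0. Nr1d1 of mice 1-16 separates the diets in liver (highest IF library 30.3 CPM, lowest AL library 45.2 CPM) and in muscle, and Rorb is almost confined to cortex.

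The repressor gene Nr1d1, which encodes REV-ERBα, fell with fasting in liver of mice 1-16. AL livers ran from 45.2 to 132 CPM (median 72.2) and IF livers from 8.20 to 30.3 CPM (median 19.4), n = 8 each. Every IF liver lay below every AL liver, and the AL mean was 3.60 times the IF mean. The log2 fold change was -1.96 ± 0.26 (± SE, edgeR, adjusted p = 7.44e-06). In bulk tissue fewer cells of a type and less RNA per cell cannot be told apart. Of all 16204 genes tested in that comparison 44.6% passed an adjusted p of 0.05, 23.5% higher and 21.1% lower in IF mice, so a passing gene is common there. Of the 3 receptors tested 1 was higher (Nr1d2) and 1 lower (Nr1d1).

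In muscle of mice 1-16 Nr1d1 fell as well. AL muscles ran from 168 to 251 CPM (median 204) and IF muscles from 27 to 54.3 CPM (median 39), n = 8 each. No IF muscle reached the lowest AL muscle, and the AL mean was 5.26 times the IF mean. The log2 fold change was -2.47 ± 0.12 (adjusted p = 4.51e-10, edgeR). In this comparison 23.0% of 15025 genes passed, 11.5% higher and 11.6% lower, and of the 3 receptors tested 2 were higher and 1 lower. Among the passing genes 49.8% were higher, and 70.4% when library totals alone set the scale. The receptor calls held under that scale.

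Cortex of mice 1-16 gave no such difference. AL cortices ran from 66.7 to 114 CPM (median 103), n = 7, and IF cortices from 67.3 to 146 CPM (median 88.2), n = 8. The groups overlapped, with 1 IF library above every AL library. The log2 fold change was -0.03 ± 0.16 (adjusted p = 0.934, edgeR). In this comparison 7.21% of 18462 genes passed (3.79% higher, 3.43% lower), and 0 of the 4 receptors by edgeR or DESeq2. At an unadjusted p under 0.05 edgeR had 4400 genes, and after adjustment 1332, against 2259 by DESeq2 and 119 in a single fit over the 3 tissues. Leaving out each library in turn gave 638 to 2060 genes.

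In mice 25-40 the levels of Nr1d1 overlapped between the diets in each tissue. Livers ran from 122 to 235 CPM (median 164) in AL mice and from 70.8 to 197 CPM (median 126) in IF mice, with 2 IF livers under the lowest AL liver. Muscles ran from 134 to 245 CPM (median 197) in AL mice and from 61.5 to 186 CPM (median 147) in IF mice. There 8 of 8 IF muscles lay below the AL median and 3 below every AL muscle. Cortices ran from 131 to 233 CPM (median 175) in AL mice and from 147 to 191 CPM (median 165) in IF mice. The log2 fold changes, -0.31 ± 0.16 in liver, -0.34 ± 0.18 in muscle and -0.07 ± 0.10 in cortex, did not pass (adjusted p = 0.850, 0.495 and 0.782, edgeR).

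Few genes of any kind passed in mice 25-40. In liver 0.00% of 15938 genes passed by edgeR, with 919 at an unadjusted p under 0.05 and 6 after adjustment by DESeq2. In muscle 0.00653% of 15308 genes passed, which is 1 gene (Rn18s-rs5), against 91 by DESeq2. In cortex 0.0109% of 18403 genes passed, which is 2 genes (mt-Atp6 and Gm11263), against 73 by DESeq2. These 3 genes lie outside the rule for named genes and were chosen after their values were seen. The counts moved with the fit: leaving out each library in turn gave 0 to 254 genes in cortex, and a single fit over the 3 tissues gave 283 genes in liver. None of the receptors passed in these mice by edgeR or DESeq2, and the only unadjusted p under 0.05 by edgeR was that of Rora in cortex (0.0185).

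Nr1d2, which encodes REV-ERBβ, moved the other way from Nr1d1 in the livers of mice 1-16. AL livers ran from 24.4 to 54.5 CPM (median 35.2) and IF livers from 53.5 to 87.2 CPM (median 72.2), n = 8 each. Of the IF livers 7 of 8 lay above the highest AL liver. Fasted livers held more Nr1d2 by 0.85 ± 0.14 on the log2 scale (adjusted p = 4.08e-05, edgeR).

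In muscle of mice 1-16 Nr1d2 also rose, by a smaller amount. AL muscles ran from 28.5 to 57.5 CPM (median 47.9) and IF muscles from 58.1 to 66.4 CPM (median 61.7), n = 8 each, without overlap. The log2 fold change was 0.36 ± 0.10 (adjusted p = 0.00854, edgeR). A single fit over the 3 tissues gave an adjusted p of 0.0514, and over its 8 alternatives the adjusted p ran from 0.00230 to 0.0514.

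Cortex of mice 1-16 held Nr1d2 at 54.2 to 79.3 CPM (median 58.2) in AL mice, n = 7, and at 62.1 to 86.2 CPM (median 76.4) in IF mice, n = 8. All 8 IF cortices lay above the AL median, and 1 lay above the highest AL library. The log2 fold change of 0.23 ± 0.09 did not pass (adjusted p = 0.106, edgeR). Leaving out each library in turn gave adjusted p-values of 0.0326 to 0.206, and only the fit without AL replicate 7 passed.

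Mice 25-40 had overlapping levels of Nr1d2 in the 3 tissues. Livers ran from 76.1 to 179 CPM (median 104) in AL and 80.8 to 137 CPM (median 102) in IF mice, and muscles from 75.6 to 98.3 CPM (median 85.4) and 67.7 to 91.1 CPM (median 83.2). Cortices ran from 67.6 to 85.3 CPM (median 73.5) in AL and 57.9 to 90.1 CPM (median 74.3) in IF mice. The log2 fold changes were -0.10 ± 0.14 in liver, 0.01 ± 0.07 in muscle and -0.01 ± 0.06 in cortex, n = 8 each.

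The activator gene Rora, which encodes RORα, rose in muscle of mice 1-16. AL muscles ran from 39.7 to 60.1 CPM (median 48.9) and IF muscles from 57.9 to 88.8 CPM (median 76.6), n = 8 each. The ranges met only at their edge, and 7 of 8 IF muscles lay above the highest AL muscle. This gave a log2 fold change of 0.56 ± 0.09 (adjusted p = 8.39e-05, edgeR).

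Liver and cortex of mice 1-16 overlapped in Rora between the diets. Livers ran from 25.3 to 44.8 CPM (median 30.3) in AL and 26 to 43.3 CPM (median 38.2) in IF mice. In liver 7 of 8 IF mice lay above the AL median, and the log2 fold change of 0.14 ± 0.12 did not pass (adjusted p = 0.336, edgeR). Cortices ran from 21.3 to 45.8 CPM (median 34.4) in AL, n = 7, and 24.9 to 39.5 CPM (median 32.7) in IF mice, n = 8, with a log2 fold change of -0.08 ± 0.14.

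Among mice 25-40, muscle held Rora at 56.5 to 84.0 CPM (median 64.7) in AL and 51.4 to 90.4 CPM (median 65.2) in IF mice, and liver at 25.6 to 38.6 CPM (median 29.3) and 26 to 33.7 CPM (median 30.3). Neither tissue separated the diets, with log2 fold changes of 0.04 ± 0.11 in muscle and 0.04 ± 0.10 in liver. Cortex held 32.4 to 45.4 CPM (median 36.8) in AL and 26.2 to 37.5 CPM (median 34.1) in IF mice. There 7 of 8 IF mice lay below the AL median, and the log2 fold change of -0.19 ± 0.07 did not pass (adjusted p = 0.383, edgeR).

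Rorb, which encodes RORβ and in brain marks neurons of cortical layer 4, was counted almost only in cortex. In mice 1-16 cortices ran from 28.9 to 54.7 CPM (median 43.3) in AL, n = 7, and 25.5 to 56.5 CPM (median 34.4) in IF mice, n = 8. In mice 25-40 they ran from 37.8 to 55.6 CPM (median 44.6) in AL and 26.3 to 48.5 CPM (median 42.8) in IF mice. The diets overlapped in both cohorts, and the log2 fold changes of -0.18 ± 0.17 and -0.12 ± 0.11 did not pass (adjusted p = 0.584 and 0.647, edgeR).

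Outside cortex Rorb was under the filter on low counts in each fit of a single tissue and cohort. Livers of mice 25-40 held 0 counts of Rorb in 16 of 16 libraries, so that cortex was at least 8016-fold higher against a floor of 3 counts over those libraries together, a floor that covers counting error only. Livers of mice 1-16 held 21 counts in all, with 10 of 16 libraries at 0 and at most 7 counts in a library. Muscle held 129 counts of Rorb over the 16 libraries of mice 1-16 and 164 over those of mice 25-40.

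**Figure D2:**
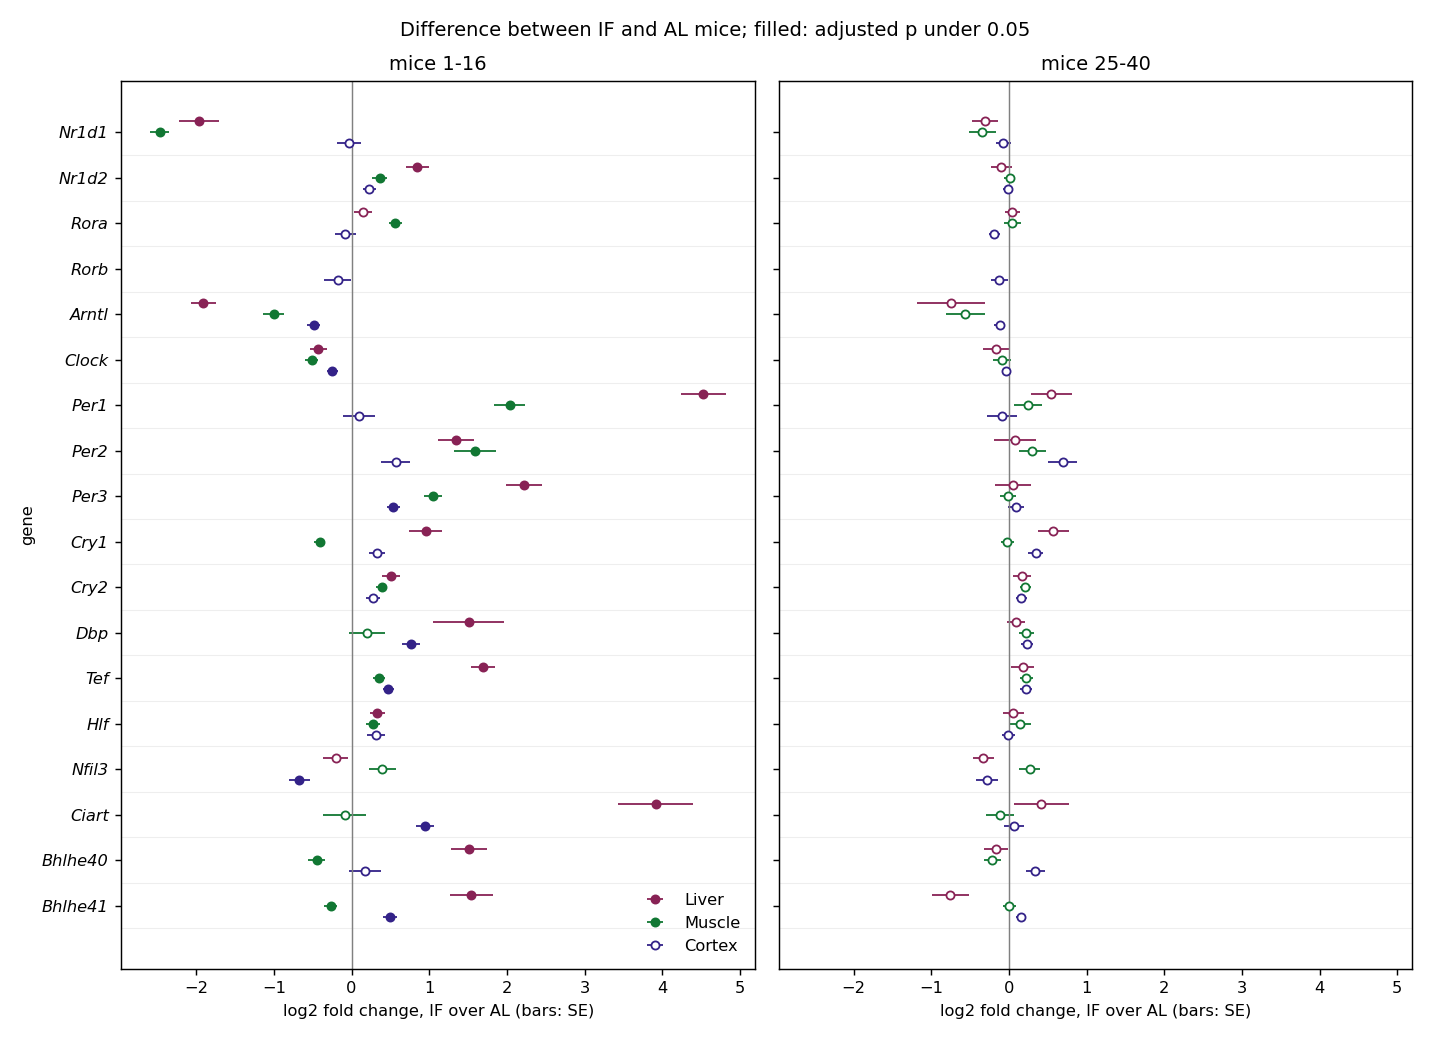
Log2 fold change of IF over AL mice (points, with SE as bars) for receptor and clock genes in liver, muscle and cortex, with mice 1-16 in the left panel and mice 25-40 in the right panel. Filled points passed the adjusted threshold of 0.05: in mice 1-16 Nr1d1 stands at -1.96 in liver and -2.47 in muscle, and no gene shown passed in mice 25-40.

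The interaction of cohort and diet asks whether the difference between IF and AL mice was the same in mice 25-40 as in mice 1-16. In liver 23.7% of 17658 genes passed this test, in muscle 14.2% of 16346 and in cortex 2.03% of 19547. For Nr1d1 the difference, mice 25-40 minus mice 1-16, was 1.69 ± 0.30 in liver and 2.15 ± 0.22 in muscle (log2, adjusted p = 8.79e-05 and 4.93e-07, edgeR). The fold change of mice 1-16 was thus the larger in both tissues. For Nr1d2 the difference was -0.91 ± 0.21 in liver (adjusted p = 0.00104), and for Rora it was -0.50 ± 0.15 in muscle (adjusted p = 0.0189). Markers of other cells passed this test too: in muscle 2 of 4 adipocyte and 3 of 4 endothelium markers were lower (medians -2.53 and -0.60) and 2 of 7 markers of muscle fibres higher (0.40), and 2 of 3 tested genes of the astrocyte list lower (-0.79). In liver 2 of 5 erythrocyte markers were lower (-1.60), and in cortex 3 of 4 oligodendrocyte markers (-0.69). Their part in the receptor differences was not tested.

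Nr1d2 in muscle differed between the cohorts by -0.34 ± 0.12 (adjusted p = 0.0563, edgeR), and over its 3 alternatives the adjusted p ran from 0.0360 to 0.0522. By DESeq2 it passed (0.0390). In cortex the differences were -0.04 ± 0.19 for Nr1d1, -0.24 ± 0.11 for Nr1d2, -0.11 ± 0.16 for Rora and 0.06 ± 0.21 for Rorb. By edgeR 0 of the 4 receptors passed in cortex, where 3007 genes had an unadjusted p under 0.05 and 397 an adjusted one, against 706 by DESeq2.

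The fed mice of the cohorts also differed in level, a comparison chosen after seeing the data. Here 20.0% of genes passed in liver, 38.4% in muscle and 12.6% in cortex. Nr1d1 was higher in AL mice 25-40 than in AL mice 1-16 by 1 ± 0.21 on the log2 scale in liver and by 0.89 ± 0.14 in cortex (adjusted p = 0.000782 and 8.98e-05, edgeR). In muscle its difference of -0.29 ± 0.15 did not pass. Nr1d2 was higher by 1.47 ± 0.15 in liver and by 0.78 ± 0.09 in muscle (adjusted p = 5.49e-10 and 1.65e-08). Its difference of 0.22 ± 0.08 in cortex did not pass by edgeR (adjusted p = 0.0617) and passed by DESeq2, with adjusted p from 0.0470 to 0.0593 over its 2 alternatives. Rora was higher in muscle by 0.33 ± 0.10 (adjusted p = 0.0114). In cortex 4 of 4 striatum markers were lower (median -1.95) and 3 of 4 oligodendrocyte markers higher (0.52), and in liver 2 of 4 Kupffer cell markers were higher (1.29). In muscle 3 of 5 erythrocyte markers (-0.87) and 3 of 7 markers of muscle fibres (-0.15) were lower, and 3 of 3 tested genes of the astrocyte list higher (0.85). Their part in the receptor levels was not tested.

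Clock genes around the receptors differed between those fed groups as well. In liver 3 of the 3 clock activators were lower in AL mice 25-40, with a median log2 difference of -4.25 beside 0.04 over all genes, of which 20.0% passed in either direction. Of the 5 period and cryptochrome genes 4 were higher and 1 lower (median 1.29), and of the 7 PAR bZIP and E-box output genes 6 were higher and 1 lower (median 2.28). In muscle, where 38.4% of all genes passed, 2 of the activators were lower and 4 of the period and cryptochrome genes higher and 1 lower (medians -1.42 and 1.40). In cortex, where 12.6% passed, 3 of the activators were lower, and of the period and cryptochrome genes 0 were higher and 1 lower (medians -0.39 and 0.01). Arntl had a median of 20.5 CPM in livers of AL mice 1-16 and of 1.05 CPM in those of AL mice 25-40.

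Tissues were compared by the interaction of tissue and diet. In mice 1-16, 33.7% of 21608 genes passed for liver minus muscle, 30.1% for liver minus cortex and 5.21% for muscle minus cortex. The response of Nr1d1 differed by -1.96 ± 0.28 for liver minus cortex and by -2.43 ± 0.28 for muscle minus cortex (adjusted p = 2.49e-07 and 1.08e-07, edgeR). Between liver and muscle its difference of 0.47 ± 0.27 did not pass (adjusted p = 0.189). The response of Nr1d2 was larger in liver than in muscle by 0.44 ± 0.17 (adjusted p = 0.0415) and than in cortex by 0.59 ± 0.18 (adjusted p = 0.00812). Rora gave -0.46 ± 0.17 for liver minus muscle (adjusted p = 0.0330) and 0.65 ± 0.18 for muscle minus cortex (adjusted p = 0.0176). Some cell markers passed as well: 3 of 5 erythrocyte markers were higher for liver minus muscle (median 1.63) and for liver minus cortex (1.78). For liver minus cortex 3 of 4 endothelium markers were higher (0.54), and for liver minus muscle 3 of 6 hepatocyte markers were lower (-1.32). The part of these markers in the receptor differences was not tested.

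In mice 25-40 the shares of genes with such a tissue difference were 0.0611%, 0.0564% and 0.00470% of 21292 genes, in the same order, or 13, 12 and 1 genes. The tissues come from the same mice, and with the mouse as a block the first count became 1 and the second 0, while RLE scaling gave 28 for the second. The 1 gene behind the last share was Rpl19-ps11, which lies outside the rule for named genes and was chosen after its value was seen. By edgeR 0 receptors passed, with 2041, 2494 and 1384 genes at an unadjusted p under 0.05, and DESeq2 was not run on these differences. For Nr1d1 they were 0.01 ± 0.22, -0.25 ± 0.22 and -0.26 ± 0.22.

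In the order of the tissues by level in AL mice, the scaling decides a part. In mice 1-16 77.9% of genes differed for liver minus muscle, 83.1% for liver minus cortex and 78.9% for muscle minus cortex, and in mice 25-40 78.5%, 83.9% and 79.5%. With TMM, the composition scaling of edgeR, Nr1d1 of mice 1-16 was highest in muscle, at -1.67 ± 0.19 for liver minus muscle and 2.11 ± 0.21 for muscle minus cortex. Rora was higher in muscle than in liver in both cohorts (-0.82 ± 0.12 and -1.44 ± 0.10 for liver minus muscle).

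Comparisons with cortex depended on the scaling. In mice 1-16, liver minus cortex for Nr1d1 was 0.44 ± 0.20 with TMM and -0.36 with library totals alone. In the same way liver minus cortex for Rora turned from 0.68 ± 0.13 to -0.10, and muscle minus cortex for Nr1d2 from 0.53 ± 0.13 to -0.48. Library totals moved the median over all genes from -0.26 to -1.05 for liver minus cortex and from -0.32 to -1.31 for muscle minus cortex. Of the passing genes 44.6% were higher with TMM and 29.4% with library totals for liver minus cortex, and 42.6% and 22.4% for muscle minus cortex. In mice 25-40 these shares were 43.8% and 31.6%, and 43.6% and 24.3%.

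Genes that work with the receptors were read from lists. In liver of mice 1-16 3 of 3 clock activators were lower, with a median log2 fold change of -1.91 beside 0.06 over all genes tested, of which 21.1% were lower. Arntl fell from a median of 20.5 to 5.92 CPM without overlap (-1.91 ± 0.16), and Clock by less (-0.43 ± 0.11). Npas2, a paralogue of Clock, had a median of 7.54 CPM in AL livers and 0 counts in 5 of 8 IF livers, whose highest value was 0.404 CPM.

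The repressors of the clock went the other way in that liver. Of 5 period and cryptochrome genes 5 were higher (median 1.34), beside 23.5% of all genes, led by Per1 with a median of 5.72 CPM in AL and 136 CPM in IF livers (4.53 ± 0.29). Per3 (2.22 ± 0.23), Per2 (1.34 ± 0.23) and Cry1 (0.96 ± 0.21) followed. Of the 7 PAR bZIP and E-box output factors, 6 were higher and 0 lower, with a median of 1.51, beside 23.5% and 21.1% of all genes. Among them were Ciart (3.92 ± 0.48), Tef (1.69 ± 0.15) and Dbp (1.51 ± 0.46), while Nfil3 (-0.20 ± 0.16) did not pass.

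Described metabolic targets of the receptors did not move as a block in liver. Of 10 tested metabolic genes 2 were higher and 5 lower, with a median of -0.45, where 23.5% of all genes tested were higher and 21.1% lower. Elovl3, which elongates fatty acids, fell from a median of 398 to 105 CPM without overlap (-2.08 ± 0.16), and Srebf1, a regulator of lipid synthesis, was lower too (-1.05 ± 0.25). So were Insig2 (-0.96 ± 0.18), Apoc3 (-0.54 ± 0.12) and Apoa1 (-0.48 ± 0.13). The higher ones, Cyp7b1 (0.66 ± 0.23) and G6pc (0.52 ± 0.21), lost their calls under some alternatives, with adjusted p from 0.00951 to 0.0720 and from 0.0116 to 0.179.

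Cofactors and haem genes were mixed in the liver of mice 1-16, where 44.6% of all genes passed. Of 9 corepressor and cofactor genes 3 were higher, with Ncor1 (0.42 ± 0.11) and the coactivator Ppargc1a (0.79 ± 0.27) among them, and 3 lower, with Hdac3 (-0.38 ± 0.10) and Gps2 (-0.67 ± 0.10). Of 10 genes of haem synthesis and breakdown 5 were higher and 3 lower. Alas1, the rate-limiting enzyme of haem synthesis in liver, rose from a median of 183 to 743 CPM without overlap (2.12 ± 0.42), and the haem oxygenases Hmox1 (1.40 ± 0.19) and Hmox2 (1.44 ± 0.18) rose as well. Of 6 genes for the turnover of REV-ERB protein, 1 was higher (Mycbp2, 0.71 ± 0.15) and 1 lower (Gsk3b, -0.41 ± 0.10).

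Muscle of mice 1-16 showed a like split among the core clock genes. The 3 activators were lower (median -1, beside 0.01 over all genes, of which 11.5% were higher and 11.6% lower). Arntl fell from a median of 21.4 to 10.2 CPM (-1 ± 0.13), and Clock (-0.51 ± 0.08) and Npas2 (-2.38 ± 0.30) fell too. Of the period and cryptochrome genes 4 were higher and 1 lower, with a median of 1.05. Per1 (2.04 ± 0.20), Per2 (1.59 ± 0.26) and Per3 (1.05 ± 0.11) rose, and Cry1, which rose in liver, was lower (-0.41 ± 0.07).

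The output factors of muscle were divided. Of 7 tested, 2 were higher (Tef, 0.35 ± 0.07, and Hlf, 0.27 ± 0.09) and 2 lower (Bhlhe40, -0.45 ± 0.11, and Bhlhe41, -0.27 ± 0.08), and Dbp (0.20 ± 0.24) did not pass. Over their alternatives the adjusted p of Cry1 ran from 4.32e-06 to 0.0696, of Hlf from 0.0125 to 0.117, of Bhlhe40 from 0.000647 to 0.130 and of Bhlhe41 from 0.0112 to 0.210, the highest from a single fit over the 3 tissues for Cry1, Bhlhe40 and Bhlhe41. Of the metabolic genes Cav3 was lower (-0.28 ± 0.07). Beside 23.0% of all genes that passed in this muscle, of 9 cofactors 2 were higher, with Ppargc1a (0.70 ± 0.12), and 3 lower. Of 10 haem genes 1 was higher and 1 lower, and of 5 turnover genes 1 was higher and 2 lower, with Siah2 (-0.55 ± 0.10), where 11.5% of all genes were higher and 11.6% lower.

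In cortex of mice 1-16, where no receptor passed, clock genes did. Of the 3 activators 2 were lower, Arntl (-0.48 ± 0.08) and Clock (-0.25 ± 0.07), with a median of -0.25 beside 0.00 over all genes, of which 3.79% were higher and 3.43% lower. Of the 5 period and cryptochrome genes 1 was higher, Per3, from a median of 27.3 to 38.5 CPM without overlap (0.54 ± 0.08). By DESeq2 Per2 (0.57), Cry1 (0.33) and Cry2 (0.28) were higher too (adjusted p = 0.0109, 0.0203 and 0.0314). Of the 7 output factors 4 were higher, Ciart (0.95 ± 0.12), Dbp (0.77 ± 0.12), Bhlhe41 (0.49 ± 0.09) and Tef (0.47 ± 0.07), and 1 was lower, Nfil3 (-0.67 ± 0.14). Each call of the main fit by edgeR was lost in a single fit over the 3 tissues. Over the alternatives the adjusted p ran from 1.57e-08 to 0.0502 for Tef and from 8.82e-08 to 0.329 for Dbp.

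The other lists of cortex held few passing genes, beside 7.21% of all genes. Of 7 metabolic genes 1 was lower (Fabp7, -1.69 ± 0.31), and of 10 haem genes 1 was higher (Ppox, 0.22 ± 0.07). Over the alternatives the adjusted p ran from 1.18e-05 to 0.0674 for Fabp7 and from 0.0167 to 0.305 for Ppox. In mice 25-40 no gene of these lists passed in any tissue by edgeR. By DESeq2 Per2 passed in cortex of mice 25-40, with adjusted p from 0.0237 to 1 over its 7 alternatives. In a single fit over the 3 tissues Cry1 and Bhlhe41 passed in liver of mice 25-40, with adjusted p from 0.0270 to 0.954 and from 0.0112 to 0.954 over the alternatives.

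Marker genes of other cells also moved with diet in mice 1-16. In liver the erythrocyte list (5 genes, Hba-a1 most abundant, none at 0) summed to 362 to 956 CPM (median 569) in AL and 667 to 6879 CPM (median 2070) in IF mice, and 3 of its genes were higher. In muscle the adipocyte list (4 genes, Cidec most abundant, none at 0) summed to 9.81 to 121 CPM (median 34.3) in AL and 35.8 to 613 CPM (median 176) in IF mice, with 3 genes higher. In cortex the oligodendrocyte list (4 genes, Mbp most abundant, none at 0) summed to 3652 to 5693 CPM (median 4468) in AL and 4943 to 8125 CPM (median 6528) in IF mice, with 3 genes higher. Members of other lists passed too. In liver 2 of 4 Kupffer cell markers were higher (median 0.53). In muscle 2 of 7 markers of muscle fibres were lower (-0.19) and 2 of 3 tested genes of the astrocyte list higher (0.59). Of all genes tested 23.5% were higher in liver, 11.5% higher and 11.6% lower in muscle, and 3.79% higher in cortex. The part of these markers in the receptor values was not tested.

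Nr1d1 shares its locus with another nuclear receptor gene. On GRCm39 the count table places Nr1d1 (ENSMUSG00000020889) at chr11:98658758-98666159 on the minus strand, tail to tail with Thra, the gene of thyroid hormone receptor alpha, at chr11:98631464-98659832 on the plus strand. The spans overlap over 1075 bases. Within both spans the gene annotation has 297 exon bases common to both genes, 9.16% of those of Nr1d1. In the annotation Thra is longer than in the count table and ends at 98661924, and with this longer form 1694 exon bases are common, 52.3% of those of Nr1d1. The libraries kept the strand, but the strand setting of the counting is not stated, so reads of the overlap cannot be told apart by gene.

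**Figure D3:**
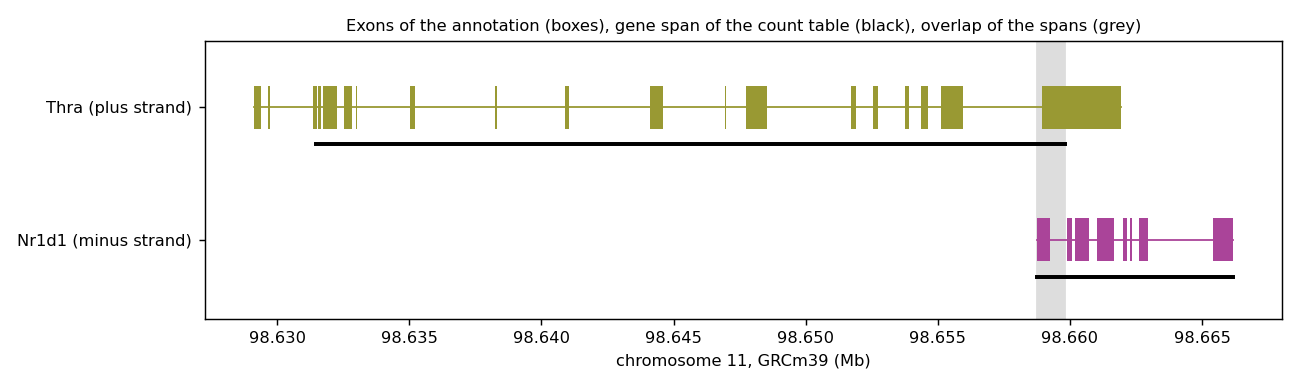
Map of chromosome 11 (GRCm39, Mb) with the exons of Thra and Nr1d1 from the annotation as boxes, the spans of the count table as black bars and the overlap of the spans in grey. The overlap of 1075 bases lies at the 3′ ends of both genes.

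Thra fell with Nr1d1 in the same tissues. In liver of mice 1-16 it ran from 26 to 78.7 CPM (median 49.5) in AL and 6.47 to 17.8 CPM (median 9.51) in IF mice, and in muscle from 73.6 to 93.3 CPM (median 83.0) and 45.8 to 63.8 CPM (median 55.3). Neither tissue overlapped, and the log2 fold changes were -2.29 ± 0.22 and -0.70 ± 0.07 (adjusted p = 8.99e-08 and 3.58e-07, edgeR). In cortex Thra stood far higher, at medians of 796 (AL) and 794 CPM (IF), while Nr1d1 stood at 103 and 88.2 CPM. How much of the count of either gene comes from the other was not tested.

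The other receptor genes lie apart on the genome. Nr1d2 (ENSMUSG00000021775) is at chr14:4230569-4265642 and Rora (ENSMUSG00000032238) at chr9:68561068-69295528, both on the plus strand, and Rorb (ENSMUSG00000036192) at chr19:18907969-19088560 on the minus strand. Of these only Rora is overlapped by a further gene of the count table, the antisense RNA Gm15511, which reached at most 0.314 CPM.

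Promoters of the REV-ERB genes are printed because these genes moved in opposite directions in the same livers. They come from RefSeq (build GRCm38.p6), and the 250 bases before the start were searched on both strands. The letters sought were the E-box CACGTG, its variant CACGTT, the REV-ERB and ROR half-site AGGTCA and the D-box TTATGTAA. Over 32851 promoter windows 6.02% hold the E-box, 3.85% the variant, 14% the half-site and 0.819% the D-box. Nr1d1 (chr11:98775378-98775627, minus strand) held 1 match, the variant on the other strand (AACGTG), 28 bases before the start. Nr1d2 (chr14:18239107-18239356, minus strand) held 1 match, the half-site, 77 bases before the start. The window of Rora held 0 matches, and of 2 windows of Rorb 1 held the variant. A match shows only that the letters are there.
Nr1d1: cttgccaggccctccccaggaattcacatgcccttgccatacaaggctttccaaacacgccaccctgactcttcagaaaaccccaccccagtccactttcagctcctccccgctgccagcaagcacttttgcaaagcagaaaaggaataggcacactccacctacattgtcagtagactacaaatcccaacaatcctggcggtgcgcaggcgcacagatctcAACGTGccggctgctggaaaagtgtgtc
Nr1d2: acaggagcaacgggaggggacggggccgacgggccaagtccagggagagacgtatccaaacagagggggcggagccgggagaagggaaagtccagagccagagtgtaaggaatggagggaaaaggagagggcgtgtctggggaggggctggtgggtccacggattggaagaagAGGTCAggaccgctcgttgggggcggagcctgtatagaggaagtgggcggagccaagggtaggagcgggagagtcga

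Genes whose levels ran most like each receptor were ranked by Pearson's r of log2 CPM, centred on each tissue and cohort, over 95 libraries and 12654 genes. For Nr1d1 the highest was Thra (r = 0.758, and 0.617 when centred on diet as well), and then Nacc2 (0.724), Zbtb7b (0.707), Srebf2 (0.679) and R3hdm2 (0.669). Lowest were Odc1, an enzyme of polyamine synthesis (-0.782), Glul, glutamine synthetase (-0.773), and Maco1 (-0.764). With diet centred out Nacc2 stood at 0.210 and Odc1 at -0.231, so most of their likeness lay between the diets. It was nearer to 0 in mice 25-40: r was 0.781 in mice 1-16 and 0.170 in mice 25-40 for Srebf2, -0.867 and -0.137 for Odc1, and 0.778 and 0.615 for Thra.

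For Nr1d2 the highest were the clock genes Per3 (r = 0.855) and Tef (0.821), and then Sik3 (0.794), Gpcpd1 (0.787) and Dcaf6 (0.766). With diet centred out Per3 still stood at 0.674 and Tef at 0.662, and in mice 1-16 and mice 25-40 apart r was 0.891 and 0.699 for Per3 and 0.893 and 0.480 for Tef. Lowest were Calr, a chaperone of the endoplasmic reticulum (-0.753), Pnkd (-0.735) and Prkaca, a catalytic subunit of protein kinase A (-0.734). For Rora the highest were Zfand5 (0.676), Prkaa2, a catalytic subunit of AMPK (0.670), Rb1cc1 (0.665), Ube2g1 (0.641) and Fbxo3 (0.641). The lowest for Rora were Gm13889 (-0.528), Rhot2 (-0.516) and Ino80b (-0.511). By cohort the r of Prkaa2 was 0.803 in mice 1-16 and 0.352 in mice 25-40.

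Rorb was ranked over the 31 cortex libraries and 18105 genes. Its highest were Gm29674 (r = 0.851), Cdsn (0.849), Cux1, a factor of upper-layer neurons (0.840), Barx2 (0.827) and Gm28800 (0.824), and its lowest Kcne1l (-0.757), Lmf1 (-0.751) and Crym (-0.747). Centring on diet left Cux1 at 0.878 and Crym at -0.781.

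Rorb ran with the markers of layer 4 and of layer 2/3 across cortex libraries. For these relations Rorb and the summed markers were taken as log2 CPM, centred on the mean of each cohort and diet. Its r with the layer 4 list (Rspo1, Kcnh5 and Scnn1a) was 0.849 over 31 libraries, and Spearman's rho was 0.808. Each had a permutation p of 1e-05, the smallest that 100000 permutations within groups can give (adjusted over 7 lists, 3.5e-05 for r and 7e-05 for rho). Without the 2 libraries farthest from the median r was 0.793, and within the cohorts it was 0.868 (15 libraries) and 0.826 (16 libraries).

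Markers of layer 2/3 (Cux2, Calb1 and Rasgrf2) gave r = 0.760 and rho = 0.728 (adjusted permutation p = 3.5e-05 and 7e-05), and r = 0.718 without the 2 farthest libraries. Within the cohorts r was 0.893 in mice 1-16, above that of layer 4, and 0.737 in mice 25-40, so the relation is not particular to layer 4. For layer 5 r was -0.445 (adjusted permutation p = 0.0158) and rho -0.370 (adjusted permutation p = 0.0967), so that relation held by r alone. The lists of layer 6, striatum, thalamus and oligodendrocytes did not pass. The part of these layer markers in the level of Rorb was not tested.

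**Figure D4:**
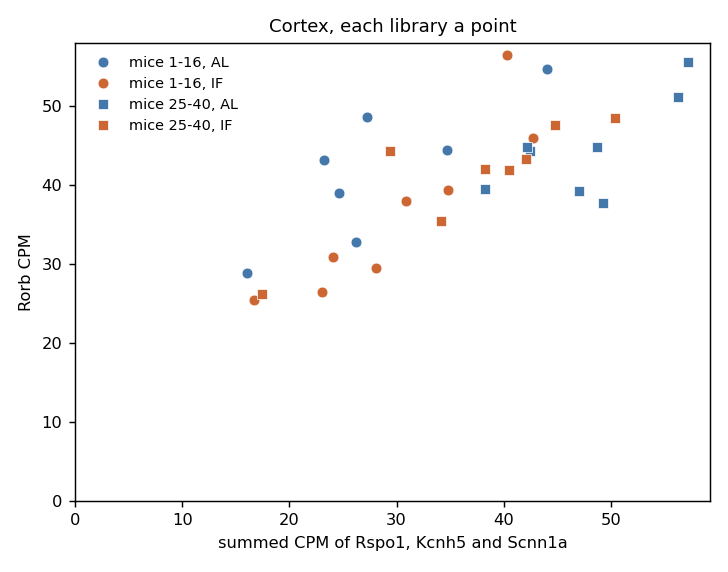
Rorb CPM against the summed CPM of the layer 4 markers Rspo1, Kcnh5 and Scnn1a in each of the 31 cortex libraries (blue AL, orange IF; circles mice 1-16, squares mice 25-40), both axes from 0. Libraries with more layer 4 signal have more Rorb in both cohorts (r = 0.868 and 0.826). These r were computed on log2 CPM centred on each cohort and diet, not on the plotted values.

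No relation between the tissues of the same mouse passed. Over 9 relations of Nr1d1, Nr1d2 and Rora between tissues, centred on group means, the highest was Nr1d1 between liver and muscle (r = 0.315, permutation p = 0.0868, 32 mice). Its rho was 0.286 (permutation p = 0.128), and adjusted over the 9 relations p was 0.781 for r and 0.707 for rho. Without the 2 farthest mice r was 0.361, and within the cohorts it was 0.137 and 0.540 (16 mice each).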

How the data were processed

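The deposited values are gene counts, which the authors made with featureCounts after Hisat2 alignment to the mouse genome GRCm39. From these raw counts CPM was computed as counts over the library total, per kilobase with the gene length of the table. Comparisons were fitted over all genes in R 4.3.3 with edgeR 4.0.16 (TMM, filterByExpr with a minimum count of 10 and a minimum total of 15, robust quasi-likelihood F test) and adjusted by Benjamini and Hochberg at 0.05. SE is the log2 fold change over the root of F. Alternatives were DESeq2 1.42.0, other scalings, filters and designs, and leaving out libraries. Log2 CPM for correlations used a prior count of 2, except for Rorb with the marker lists, where no prior was added. Floors cover counting error only. Of the 56748 gene IDs 56017 matched the annotation. Among 336 pairs of libraries within groups 0 were identical.

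Named genes are the 4 receptors, members of the pathway lists and, for each receptor, the 5 genes with the highest and the 3 with the lowest r (Thra among them), and cell types are named from lists of their markers. Members and lists were chosen with earlier results of these data known. Tissues pair by mouse per the labels, where deviations of the same mouse number correlated with r from -0.158 to 0.196 over 94 pairs, of which 25 correlated best with their own mouse.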

Additional observations from a re-analysis of the deposited data

Results flagged for a closer look

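Libraries far from the rest of their group stood out in 7 of 46 groups tested, where chance gives about 1 in 20. These were Nr1d1 in liver of mice 1-16, AL replicate 8 (132 CPM, highest), Nr1d2 in cortex of mice 25-40, AL replicate 1 (85.3 CPM, highest), and Nr1d2 in liver of mice 25-40, AL replicate 2 (179 CPM, highest). For Rora they were IF replicate 4 in cortex of mice 25-40 (26.2 CPM, lowest), IF replicate 1 in liver of mice 1-16 (26 CPM, lowest) and AL replicate 2 in liver of mice 25-40 (38.6 CPM, highest). For Rorb it was AL replicate 6 in muscle of mice 25-40 (0.498 CPM, highest). Without AL replicate 8 the log2 fold change of Nr1d1 in liver of mice 1-16 was -1.78.

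The response to fasting differed between cohorts or tissues in 10 of 35 tests of the difference itself. Such a difference was common among all genes. Between cohorts 23.7% of genes passed in liver, 14.2% in muscle and 2.03% in cortex. Between tissues of mice 1-16, 33.7% passed for liver minus muscle, 30.1% for liver minus cortex and 5.21% for muscle minus cortex. Between cohorts, mice 25-40 minus mice 1-16, these were Nr1d1 (1.69) and Nr1d2 (-0.91) in liver, and Nr1d1 (2.15) and Rora (-0.50) in muscle. Between tissues of mice 1-16 they were Nr1d2 (0.44) and Rora (-0.46) for liver minus muscle, Nr1d1 (-1.96) and Nr1d2 (0.59) for liver minus cortex, and Nr1d1 (-2.43) and Rora (0.65) for muscle minus cortex. Sex and cohort cannot be told apart.

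A signal in a library that the main comparisons do not use was Xist at 213 CPM in CAL1, labelled male. In CAL1 Nr1d1 stood at 157, Nr1d2 at 75.6, Rora at 35.9 and Rorb at 41.5 CPM.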

How the results depend on the processing

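Over the alternatives, leaving out each library among them, 629 receptor values kept their side of the threshold, 4 no longer passed, 6 newly passed and 5 that passed in either fit turned sign. Some values that passed in neither fit also changed sign, such as Nr1d2 in liver of mice 25-40 (-0.17 to 0.02). The calls of Nr1d1 in liver and muscle and of Rora in muscle of mice 1-16 held under each.

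DESeq2 gave 6 genes in liver, 91 in muscle and 73 in cortex of mice 25-40, 2259 in cortex of mice 1-16 and 706 for the cohort difference in cortex. With it Nr1d2 passed for the cohort difference in muscle (-0.34) and the AL level in cortex (0.22). A single fit over the 3 tissues gave 2195 genes in muscle and 119 in cortex of mice 1-16, and 283, 4 and 5 in liver, muscle and cortex of mice 25-40, and Nr1d2 in muscle of mice 1-16 no longer passed (0.36). Without the filter muscle of mice 25-40 had 5 genes, and RLE gave 28 for liver minus cortex there. Cortex of mice 1-16 had 294 genes with CAL1 kept and 498 without AL mouse 2 and IF mouse 10. The cause was not tested.

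AL and IF libraries of the same replicate number come from different mice. Their deviations correlated with r from -0.262 to 0.455 over 47 pairs, and 6 correlated best with their own number. In muscle of mice 25-40, 4 of 8 pairs had r over 0.1, and whether such pairs share more than a number was not tested. The replicate number as a block gave 382 genes in cortex of mice 1-16 and 0 in that of mice 25-40. With this block Nr1d2 passed for the cohort difference in muscle (-0.36). The mouse as a block gave 1 gene for liver minus muscle and 0 for liver minus cortex in mice 25-40. Blocks changed no other receptor call.

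Library totals alone gave 0 genes in cortex of mice 25-40. For AL levels in mice 1-16 they gave -0.36 for Nr1d1, -0.82 for Nr1d2 and -0.10 for Rora in liver minus cortex, and -0.48 for Nr1d2 in muscle minus cortex. In mice 25-40 they gave -0.15 for Nr1d1 and 0.38 for Nr1d2 in liver minus muscle, -0.0732 for Nr1d1 and -0.34 for Rora in liver minus cortex, and 0.0798 for Nr1d1 and 0.22 for Nr1d2 in muscle minus cortex.

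Leaving out each library in turn, cortex of mice 1-16 had 638 to 2060 genes: 638, 766 and 771 without AL replicates 2, 3 and 5, and 877, 2060, 866 and 823 without IF replicates 3, 4, 5 and 6. Nr1d2 ran from 0.19 to 0.28 there and passed only without AL replicate 7 (0.28). Cortex of mice 25-40 had 0 to 254 genes, 254 without AL replicate 2, 2 without AL replicate 8, and 0 or 1 without any other. Muscle of mice 25-40 had 1 to 3 genes, 3 without AL replicate 3 and 2 without IF replicate 1. No other receptor call changed.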
